A study of Mus musculus with 10 samples.

Results

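The liver expression of 10 genes of the Serpina1 and Serpina3 groups of protease inhibitors was followed in mice: Serpina1a, Serpina1b, Serpina1c, Serpina1d, Serpina1e, Serpina3c, Serpina3k, Serpina3m, Serpina3n and Serpina6. They were chosen by name, and all 10 were among the 16647 genes of the count table. RNA was sequenced from the livers of 10 male humanized PXR-CAR-CYP3A4/3A7 mice, in which human receptor and cytochrome genes take the place of the mouse ones in every animal, controls included. The mice were 10 to 15 weeks old when they began 8 weeks of high-fat diet (HFD), and stayed on it during 4 weeks of treatment. By oral gavage 3 times per week, 5 mice received the vehicle of DMSO, PEG300 and corn oil (control) and 5 received MI-883 at 5 mg/kg in the same vehicle. MI-883 is a small molecule described by its makers as an agonist of human CAR and an antagonist of human PXR.

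Serpins are secreted or intracellular proteins that trap a protease after it cuts an exposed stretch of the inhibitor called the reactive centre loop, and the sequence of that loop sets which protease is caught. Serpina1 is alpha-1-antitrypsin, the main plasma inhibitor of neutrophil elastase, and Serpina3 is alpha-1-antichymotrypsin, an acute phase protein. Humans carry a lone functional gene for each, whereas mice carry clusters of copies, some of which the liver expresses at high levels. Serpina6 is corticosteroid-binding globulin, a serpin fold that carries glucocorticoids in plasma and inhibits no protease.

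All 10 genes lie on chromosome 12 of GRCm38. In the order of their positions they are Serpina6 (chr12:103646630-103657218), Serpina1b (chr12:103728156-103738189), Serpina1d (chr12:103763587-103773633), Serpina1a (chr12:103853295-103863619), Serpina1c (chr12:103894926-103904950), Serpina1e (chr12:103946931-103956897), Serpina3c (chr12:104146907-104153929), Serpina3k (chr12:104338486-104345739), Serpina3m (chr12:104387157-104394259) and Serpina3n (chr12:104406646-104414334). The coding bases of the reactive centre loop region are given for the 5 Serpina1 paralogs, since this is where the copies differ in what they can bind. Each stretch of 81 bases lies in the last exon, reads 5′ to 3′ on the coding strand and comes from GENCODE transcripts on GRCm38, and capitals mark the 18 bases that are not the same in all 5 paralogs.
Serpina1a (chr12:103853750-103853830, reverse strand): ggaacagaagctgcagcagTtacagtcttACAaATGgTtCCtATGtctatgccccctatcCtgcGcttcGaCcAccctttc
Serpina1b (chr12:103728317-103728397, reverse strand): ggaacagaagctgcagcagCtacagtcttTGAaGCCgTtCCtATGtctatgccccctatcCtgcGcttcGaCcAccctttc
Serpina1c (chr12:103895087-103895167, reverse strand): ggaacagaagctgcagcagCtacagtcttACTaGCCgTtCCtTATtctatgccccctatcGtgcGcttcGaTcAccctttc
Serpina1d (chr12:103763755-103763835, reverse strand): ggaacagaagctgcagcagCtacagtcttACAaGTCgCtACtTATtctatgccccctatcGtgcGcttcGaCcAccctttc
Serpina1e (chr12:103947093-103947173, reverse strand): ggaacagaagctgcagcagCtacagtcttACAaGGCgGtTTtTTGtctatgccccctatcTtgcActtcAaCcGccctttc
The differing bases were clustered in the middle of the stretch, while its start was shared by all 5 paralogs. Serpina1c and Serpina1d were closest to each other, with 93.8% identical bases, and Serpina1e was the farthest from Serpina1a and Serpina1c, with 85.2%. The loops of 3 Serpina3 paralogs follow, with capitals for all bases between their shared start and their shared end.
Serpina3k (chr12:104345269-104345352, forward strand): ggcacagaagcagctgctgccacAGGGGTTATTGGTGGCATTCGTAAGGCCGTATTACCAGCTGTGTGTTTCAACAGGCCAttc
Serpina3m (chr12:104393769-104393858, forward strand): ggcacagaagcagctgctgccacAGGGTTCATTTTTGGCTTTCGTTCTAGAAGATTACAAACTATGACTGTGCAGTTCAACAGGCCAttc
Serpina3n (chr12:104413448-104413537, forward strand): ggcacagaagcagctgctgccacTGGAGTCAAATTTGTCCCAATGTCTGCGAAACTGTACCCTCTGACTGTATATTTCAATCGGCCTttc
Serpina3m and Serpina3n shared 68.9% of 90 loop bases, less than any pair of Serpina1 paralogs. Serpina3k had a shorter stretch of 84 bases.

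Library totals lay between 23513665 and 36221514 counts. Levels are in CPM, meaning a gene's counts relative to its TMM-adjusted library total. The edgeR quasi-likelihood test compared the groups for the 13219 genes whose counts added up to 60 or more, and P values were adjusted over all of them after Benjamini and Hochberg. An adjusted P under 0.05 was found for 1.03% of the tested genes in edgeR and 3.50% in the Wald test of DESeq2, and 3.98% had CPM values that did not overlap between the groups. Cyp2b10, a cytochrome induced by CAR, was at 24.4 to 44.3 CPM in control livers and at 634 to 1375 CPM in MI-883 livers (log2 fold change 4.80 ± 0.25 SE, adjusted P = 3.63e-07). The liver identity of the samples was plain from Alb, the albumin gene, at 46624 to 61411 CPM. The labels named no sequencing batch.

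Per kilobase of transcript, Serpina1b had the highest level of the 10 genes and Serpina3c the lowest. Over 10 livers Serpina1b was at 3251 ± 348 CPM per kilobase (S.D., n = 10), followed by Serpina3k at 2033 ± 343, Serpina1d at 1625 ± 286, Serpina1c at 1593 ± 369 and Serpina1a at 1236 ± 178. A second tier held Serpina3m at 213 ± 51.3 CPM per kilobase, Serpina6 at 212 ± 57.5, Serpina3n at 193 ± 34.9 and Serpina1e at 117 ± 91.8. Serpina3c stood far under the others, with 0.0794 ± 0.0606 CPM per kilobase. Serpina1b was above Serpina3k in 10 of 10 livers without overlap of the ranges, and every liver had Serpina1a above Serpina3m, the next gene in the order, by 5.81-fold on average. Neighbours that did not differ beyond their spread were Serpina1d and Serpina1c, where Serpina1d was higher in 7 of 10 livers, Serpina3m and Serpina6 (4 of 10) and Serpina6 and Serpina3n (5 of 10). Serpina3k exceeded Serpina1d in 9 of 10 livers, Serpina1c exceeded Serpina1a in all 10, and Serpina3n exceeded Serpina1e in 8, each with overlapping ranges.

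**Figure D1:**
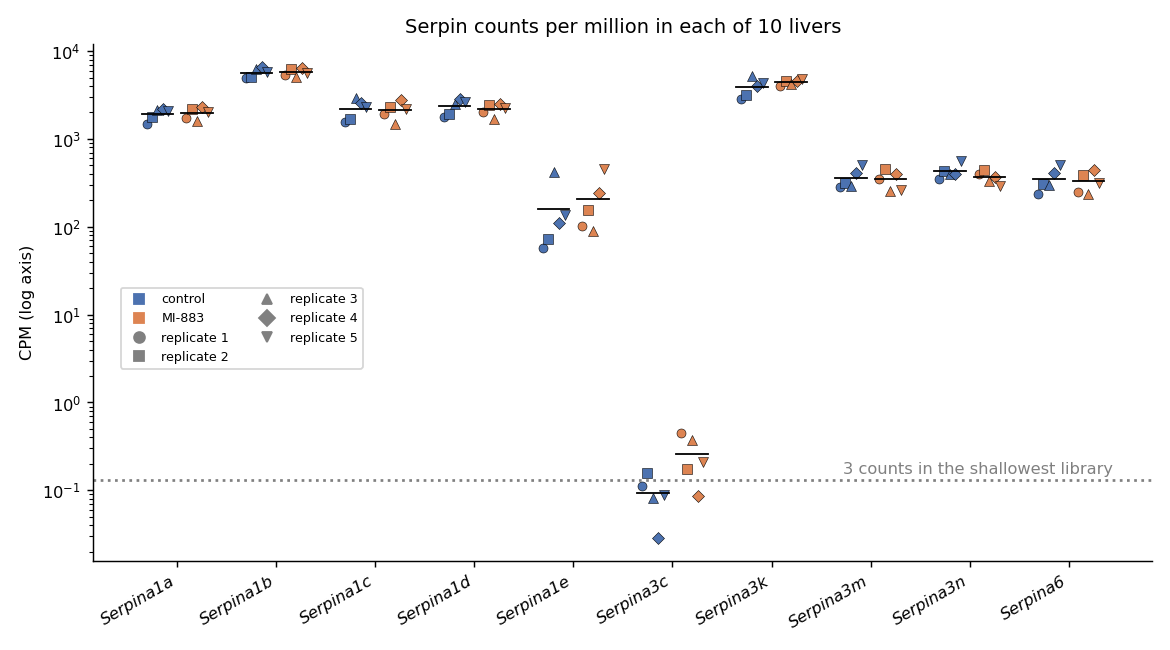
CPM of the 10 serpin genes (log axis) in each liver, with control in blue, MI-883 in orange, a marker shape for each replicate number and a bar at the group mean. Serpina1b lay between 4943 and 6506 CPM, Serpina1e spread from 57.9 to 460 CPM within both groups, and Serpina3c sat around the dotted line, the CPM that 3 counts give in the shallowest library.

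The order among the Serpina1 paralogs rests on reads that the copies share in part. Of the 150-base stretches of the transcript, as long as 1 read, 59.7% of Serpina1c, 40.7% of Serpina1a, 23.3% of Serpina1d, 16.4% of Serpina1b and 7.57% of Serpina1e also occurred in a transcript of another gene. Serpina1a shared the most with Serpina1c, its neighbour on the chromosome, at 40.7% of its stretches. In the Serpina3 genes and Serpina6 the share was at most 0.331%, so these genes can be told apart by nearly all reads. How the authors' counting treated a read that fits several genes is not given in the sources used here. CPM was also divided by the kilobases of positions where a 150-base stretch found in no other gene begins. Serpina1c then came first with 4444 ± 1029, followed by Serpina1b with 4247 ± 454. Next were Serpina1d with 2371 ± 418, Serpina1a with 2302 ± 332 and Serpina3k with 2197 ± 370. This divisor takes shared reads as not counted and ignores the pairing of reads, so the place of Serpina1c above Serpina1b is uncertain.

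**Figure D2:**
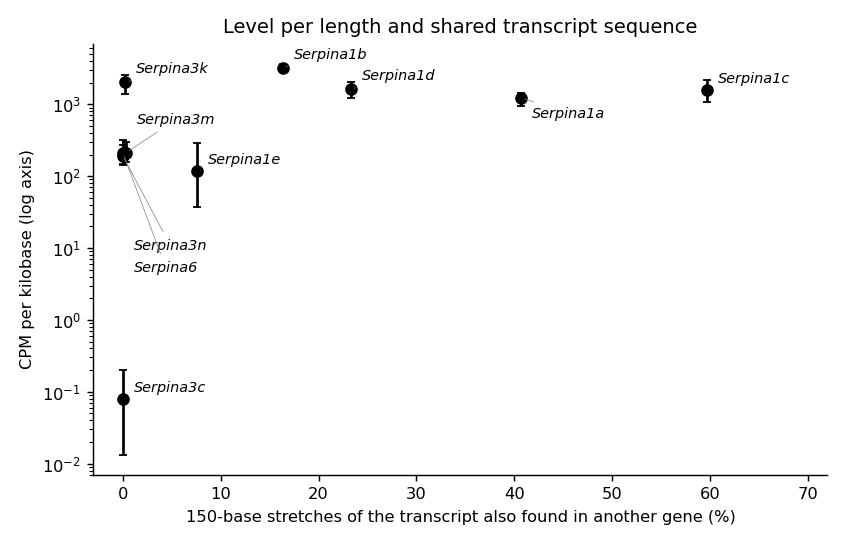
Mean CPM per kilobase over 10 livers (log axis, bars from the lowest to the highest liver) against the percentage of 150-base transcript stretches that another gene also holds. Serpina1a and Serpina1c combine a high level with 40.7% and 59.7% shared stretches, whereas the Serpina3 genes and Serpina6 are near 0%.

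Serpina1e and Serpina3c were expressed far under close copies of themselves. The bases before their annotated starts were compared with those of a copy with a higher level, Serpina1b for Serpina1e and Serpina3n for Serpina3c. The bases upstream of the RefSeq start of each window (GRCm38.p6) that both windows of a pair hold are given below. They read 5′ to 3′ on the gene's strand, with capitals for bases that differ within the pair. For Serpina3c and Serpina3n the start used lies inside the gene span given above, so part of their printed bases belongs to the gene.
Serpina1b (chr12:103738190-103738389, reverse strand): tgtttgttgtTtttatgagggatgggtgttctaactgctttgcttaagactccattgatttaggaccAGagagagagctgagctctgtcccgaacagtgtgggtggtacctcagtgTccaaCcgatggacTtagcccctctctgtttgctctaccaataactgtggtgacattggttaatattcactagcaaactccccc
Serpina1e (chr12:103956950-103957147, reverse strand): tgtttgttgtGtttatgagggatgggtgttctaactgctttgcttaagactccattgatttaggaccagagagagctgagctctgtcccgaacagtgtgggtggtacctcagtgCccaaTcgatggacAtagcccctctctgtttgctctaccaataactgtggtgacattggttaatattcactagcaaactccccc
The Serpina1b and Serpina1e sequences ran in parallel with 6 and 4 bases in capitals, 2 bases being absent from Serpina1e. The RefSeq start of Serpina1e is annotated farther downstream, so that the aligned stretch ends 53 bases before it and right at the start of Serpina1b. The letters GTTAAT, a half-site of the hepatocyte factor HNF1, searched on both strands, were found in the 300-base windows of 5 of 5 Serpina1 paralogs and in 7.10% of the 32851 RefSeq promoter windows. In Serpina1a to Serpina1d they began 16 to 27 bases before the start, and in Serpina1e 78 bases before it. Both printed sequences hold them near their 3′ end. Where they overlap, pairs of the 5 Serpina1 windows were 91.4% to 97.6% identical, so their matches are not independent.
Serpina3c (chr12:104153873-104154119, reverse strand): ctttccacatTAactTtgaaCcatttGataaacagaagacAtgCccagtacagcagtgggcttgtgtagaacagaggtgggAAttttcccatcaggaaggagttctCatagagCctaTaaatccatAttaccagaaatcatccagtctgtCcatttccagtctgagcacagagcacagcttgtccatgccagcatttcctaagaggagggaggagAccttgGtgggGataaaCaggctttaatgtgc
Serpina3n (chr12:104406458-104406704, forward strand): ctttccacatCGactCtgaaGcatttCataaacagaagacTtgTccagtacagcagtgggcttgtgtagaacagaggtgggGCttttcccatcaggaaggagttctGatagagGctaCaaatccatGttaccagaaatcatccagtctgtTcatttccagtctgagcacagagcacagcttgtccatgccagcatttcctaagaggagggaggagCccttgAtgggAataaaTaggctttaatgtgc
Serpina3c and Serpina3n had 18 differing bases each over 247 bases, and over their whole windows they were 92.6% identical, while Serpina3n was at 193 and Serpina3c at 0.0794 CPM per kilobase. GTTAAT was found in the window of Serpina3c, 239 bases before the start used, and not in that of Serpina3n. The letters TATAAA were found in Serpina3c, 132 bases before the start used, and in 13.6% of all windows. The STAT letters TTCNNNGAA (8.30% of all windows) and the full HNF1 palindrome were in none of the 7 windows. These matches describe letters and were not tested against expression. Windows of Serpina3k, Serpina3m and Serpina6 were not used here.

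The first question was whether MI-883 altered the expression of these inhibitors. No member was called. Of the 9 members that passed the count minimum, 0 had an adjusted P under 0.05, and 0 had an unadjusted P under 0.05 in edgeR or DESeq2, beside the 1.03% and 3.50% called among all tested genes. In all 9 the values of the groups overlapped. The log2 fold changes were above 0 in 4 members and under 0 in 5, with a median of -0.05 beside 0.0045 over all tested genes. Since these are whole livers, fewer cells of a type and less RNA per cell cannot be told apart in any of the values.

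**Figure D3:**
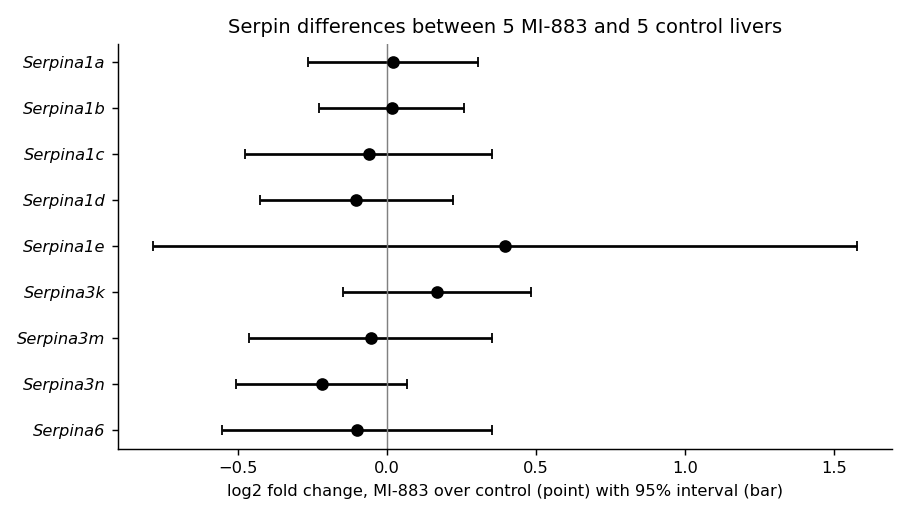
Log2 fold change of MI-883 over control for the 9 serpin genes tested (points) with the 95% interval of the edgeR fit (bars). All 9 intervals include 0, and that of Serpina1e, from -0.78 to 1.58, is the widest.

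Serpina1b, the alpha-1-antitrypsin copy to which most counts were assigned, was at 4943, 5016, 6184, 6506 and 5847 CPM in control replicates 1 to 5. In MI-883 replicates 1 to 5 it was at 5410, 6312, 5032, 6427 and 5612 CPM. Control replicates 1 and 2 and MI-883 replicates 1 and 3 were the low livers, and both groups spanned the same range. The log2 fold change was 0.01 ± 0.11 (SE), with a 95% interval of -0.23 to 0.26 and an adjusted P of 0.967.

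The other 3 abundant copies had the same picture. Serpina1a had a mean of 1942 ± 296 CPM without and 1968 ± 302 CPM with MI-883 (S.D., n = 5), a log2 fold change of 0.02 with an interval of -0.27 to 0.30. Serpina1c had 2215 ± 584 against 2123 ± 471 CPM, a log2 fold change of -0.06 (interval -0.48 to 0.35). Serpina1d had 2346 ± 477 against 2184 ± 338 CPM, a log2 fold change of -0.10 (interval -0.43 to 0.22). The adjusted P of these 3 genes lay between 0.774 and 0.962. In linear terms the intervals of the 4 abundant copies exclude a fall under 0.719-fold and a rise above 1.28-fold. The summed Serpina1 level, 12361 ± 2080 CPM without and 12243 ± 1743 CPM with MI-883, took 1.03% to 1.38% of all counts of a liver.

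Serpina1e differed from the other copies in its spread. It was at 57.9, 73.5, 422, 111 and 135 CPM in control replicates 1 to 5 and at 103, 156, 88.9, 242 and 460 CPM in MI-883 replicates 1 to 5. The highest liver had 7.94 times the lowest, compared with 1.32 times for Serpina1b. The high livers, control replicate 3 and MI-883 replicate 5, were in different groups. Among the 1484 genes with a mean of at least 100 CPM, Serpina1e ranked 3 by its S.D. of log2 CPM within groups (1.04, median of these genes 0.15). The log2 fold change was 0.40 ± 0.55 (SE, interval -0.78 to 1.58, adjusted P = 0.761). It was 1.16 without control replicate 3 (adjusted P = 0.284) and -0.11 without MI-883 replicate 5 (adjusted P = 0.949), so single livers set its size and its sign.

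Serpina3k, a mouse alpha-1-antichymotrypsin copy known as a kallikrein-binding inhibitor, was at 2872, 3203, 5225, 4038 and 4357 CPM in control replicates 1 to 5. In MI-883 replicates 1 to 5 it was at 3991, 4513, 4257, 4600 and 4755 CPM. The MI-883 livers were close together, with a coefficient of variation of 6.81% beside 23.8% in control livers, and 4 of 5 lay above the control median. The log2 fold change was 0.17 ± 0.15 (SE, interval -0.15 to 0.48, adjusted P = 0.612).

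Serpina3n, an acute phase inhibitor known to act on granzyme B and leukocyte elastase, was at 354, 432, 396, 400 and 559 CPM in control replicates 1 to 5. In MI-883 replicates 1 to 5 it was at 398, 444, 336, 368 and 293 CPM. Its log2 fold change of -0.22 ± 0.13 (SE, interval -0.51 to 0.07) had the lowest adjusted P of the members, 0.445 in edgeR and 0.444 in DESeq2. The highest value, in control replicate 5, and the lowest, in MI-883 replicate 5, stood at the ends of overlapping groups. Serpina3m, another copy of the cluster, had 360 ± 92.4 CPM without and 347 ± 87.3 CPM with MI-883, a log2 fold change of -0.05 (interval -0.46 to 0.35, adjusted P = 0.915).

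The summed Serpina3 level was 4727 ± 998 CPM without and 5138 ± 317 CPM with MI-883, which was 0.367% to 0.574% of all counts of a liver.

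Serpina3c was barely detected. Its raw counts were 4, 5, 2, 1 and 2 in control replicates 1 to 5 and 13, 4, 10, 2 and 6 in MI-883 replicates 1 to 5, 49 in all, under the minimum of 60. The control counts were around 3, the floor taken as measurable, and the groups overlapped. With no count minimum, the log2 fold change was 1.45 ± 0.53 (SE) at an unadjusted P of 0.0162 and an adjusted P of 0.249, and a permutation test of its log2 CPM, exact and two-sided, gave P = 0.0397 without adjustment. A difference in Serpina3c was therefore not shown at this depth.

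Serpina6, the glucocorticoid carrier, was at 238, 309, 302, 409 and 505 CPM in control replicates 1 to 5. In MI-883 replicates 1 to 5 it was at 251, 392, 239, 443 and 317 CPM. Livers of both groups stood at either end of the range, which spanned 2.12-fold. The log2 fold change was -0.10 ± 0.21 (SE, interval -0.55 to 0.35, adjusted P = 0.847).

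The second question was whether MI-883 altered the mix of paralogs within a liver, which does not depend on library scaling. Serpina1b supplied 46.4 ± 2.69% of the Serpina1 counts in control and 47.3 ± 2.50% in MI-883 livers (S.D., n = 5). Serpina1d supplied 18.9 ± 1.27% and 17.8 ± 0.413%, Serpina1c 17.7 ± 1.95% and 17.2 ± 1.55%, and Serpina1a 15.7 ± 0.770% and 16.1 ± 0.389%. Serpina1e took 0.590% to 3.67% of the counts. Of 5 exact two-sided permutation tests of the mean share, the lowest unadjusted P was 0.135, for Serpina1d. Serpina1b had the largest share of the assigned counts in 10 of 10 livers, but these shares are not corrected for sequence that the copies have in common, and per kilobase found in no other gene the mean level of Serpina1c (4444 CPM) was above that of Serpina1b (4247 CPM).

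Serpina3k dominated the Serpina3 counts, with 83.0 ± 3.17% in control and 86.1 ± 2.54% in MI-883 livers. Serpina3n supplied 9.25 ± 1.75% and 7.17 ± 1.17%, and Serpina3m 7.73 ± 1.63% and 6.73 ± 1.51%. Serpina3c made up at most 0.00938% of the counts of a liver. The differences did not pass the exact two-sided permutation test, with unadjusted P = 0.135 for Serpina3k, 0.0873 for Serpina3n, 0.278 for Serpina3m and 0.0635 for Serpina3c. Control replicates 3 (88.4% Serpina3k, 6.69% Serpina3n) and 4 (83.3% and 8.25%) lay within the range of the MI-883 livers. The test was repeated for each share with each liver left out in turn, without adjustment for the number of repeats. The lowest unadjusted P was 0.0238. Without control replicate 3 it was given by Serpina3k, Serpina3n and Serpina1d, with differences of 4.42, -2.72 and -1.42 percentage points. Without MI-883 replicate 4 it was given by Serpina3c. With any other liver left out, P was at least 0.0873, 0.0794, 0.0873 and 0.0635 for these genes, in the same order. Serpina3k and Serpina3n are shares of the same total, so their values are not independent. As the lowest of many, these P values do not establish a difference.

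**Figure D4:**
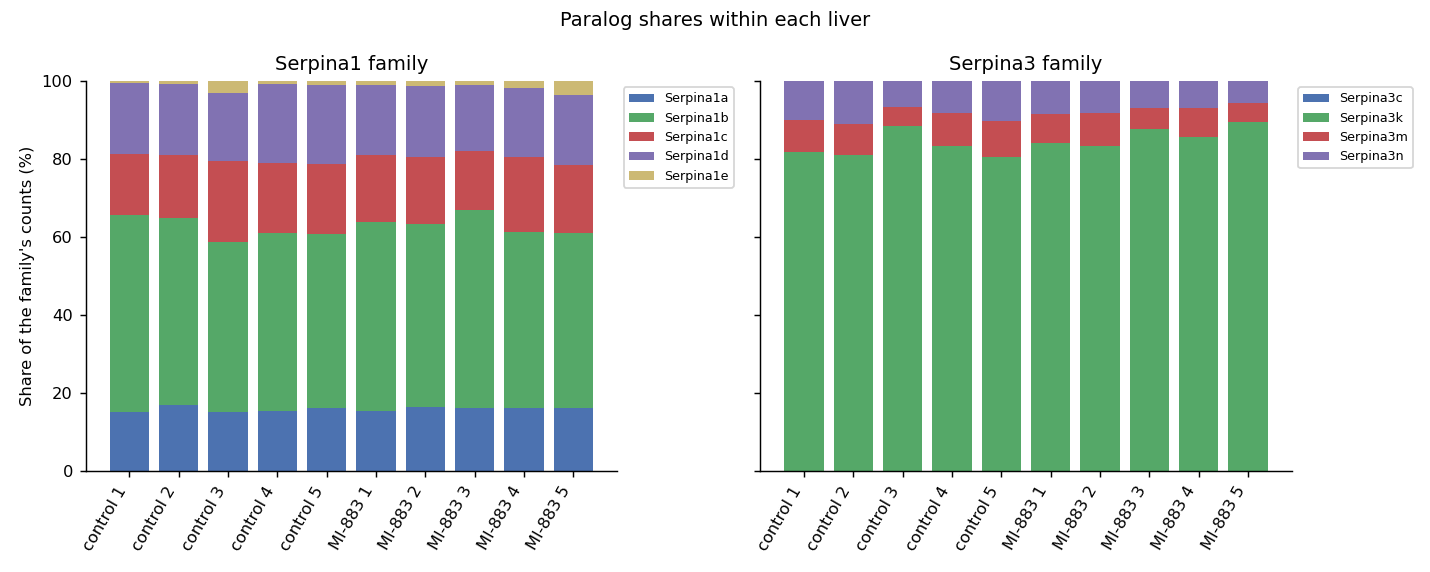
Percentage of the Serpina1 counts (left) and of the Serpina3 counts (right) that each paralog took in each of the 10 livers, as stacked bars from 0 to 100%. Serpina1b takes 43.5% to 50.8% and Serpina3k 80.4% to 89.5%, while Serpina3c is too low to be seen.

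The abundant Serpina1 copies varied together between livers. After subtraction of the group means, the 6 pairs among Serpina1a, Serpina1b, Serpina1c and Serpina1d had Pearson's r between 0.92 and 0.96 and Spearman's rho between 0.84 and 0.98 over the 10 livers. All 6 passed a permutation test adjusted over the 16 paralog pairs computed, with adjusted P of at most 0.00504 for r and 0.0184 for rho. Without the 2 livers farthest from the median, r lay between 0.82 and 0.95, and with libraries scaled by total counts in place of TMM it lay between 0.84 and 0.91. The low livers shared by these genes were control replicates 1 and 2 and MI-883 replicates 1 and 3, whose TMM factors were 1.05, 1.01, 1.03 and 1.10. MI-883 replicate 5, slightly under the median for the same genes, had a factor of 1.03, and the other 5 livers had factors of 0.949 to 0.971. The shared reads described above bear on these pairs as well, and their part in the correlations was not tested.

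Serpina1e followed the other copies less closely. Of its 4 pairs, that with Serpina1c passed (r = 0.79, permutation P = 0.0106, adjusted P = 0.0211, and rho = 0.82, permutation P = 0.00941, adjusted P = 0.0188), and r was 0.69 without the 2 farthest livers. In the Serpina3 group, Serpina3m and Serpina3n were correlated (r = 0.84, permutation P = 0.00436, adjusted P = 0.00997, and rho = 0.87, permutation P = 0.00642, adjusted P = 0.0171), with r = 0.62 without the 2 farthest livers. Serpina3k was not correlated with either, with r = 0.23 and 0.18 (permutation P = 0.565 and 0.712). Whether these correlations differ from each other was not tested.

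**Figure D5:**
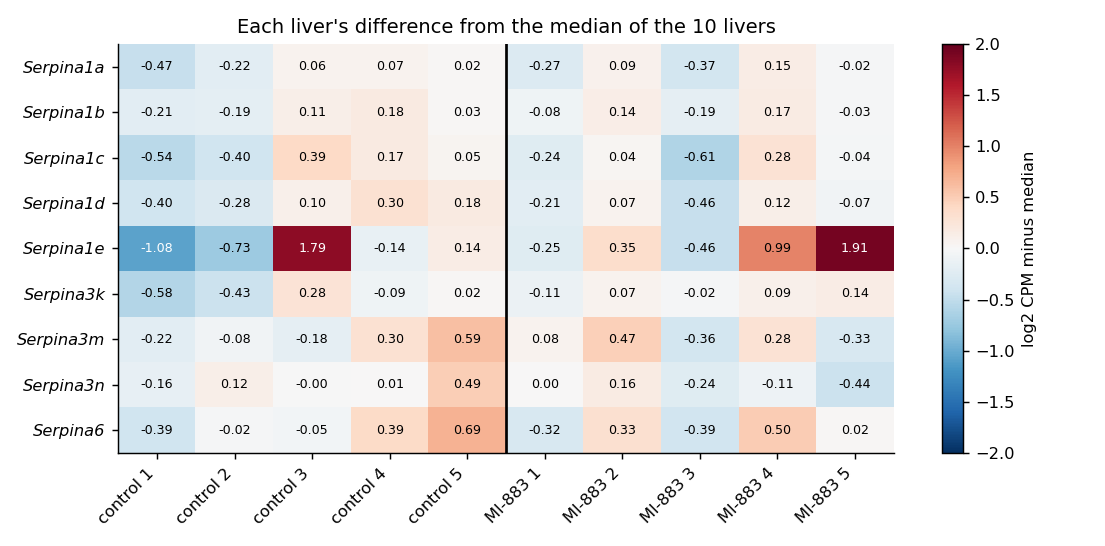
Log2 CPM of each tested serpin gene (rows) in each liver (columns) minus the median of the 10 livers, with blue under and red above the median. Serpina1a to Serpina1d are under the median in control replicates 1 and 2 and MI-883 replicates 1 and 3, and slightly so in MI-883 replicate 5, and Serpina1e reaches 1.79 in control replicate 3 and 1.91 in MI-883 replicate 5.

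The genes whose log2 CPM followed each member most closely over the 10 livers were sought among 11604 other tested genes with a mean of at least 1 CPM. Each value is the highest of many and comes with no test. Serpina1a and Serpina1b were closest to Mup17, a major urinary protein gene (r = 0.96 and 0.97), and then to Serpind1, the heparin cofactor II gene (r = 0.95 and 0.96). Serpina1d was closest to Mup3 and Serpind1 (r = 0.97 and 0.95), and Serpina1c to Slc22a7, an organic anion transporter, and Mup11 (r = 0.97 and 0.96). Mup genes are near-identical copies among which reads may be split, so the gene named is uncertain. Mup17 was at 889, 1201, 1577 and 1258 CPM in the 4 livers that were low for Serpina1 and at 2444 to 4479 CPM in the other 6.

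Serpina1e and Serpina3k shared their closest gene, the epoxygenase Cyp2c23 (r = 0.96 and 0.93), which Fgd5 followed for Serpina3k (r = 0.92). Cyp2c23 had its highest values, 281 and 282 CPM, in control replicate 3 and MI-883 replicate 5, the same 2 livers in which Serpina1e was highest. Serpina3m was closest to Bhmt2 and Tm6sf2 (both r = 0.95), Serpina3n to Spin1 (r = 0.95) and Hacl1 (r = 0.94), and Serpina6 to Atl2 (r = 0.95) and Cyp2e1 (r = 0.94). None of the neighbours named here had an adjusted P under 0.05 between the groups.

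Other genes of the same biology were read from lists of serpins, target proteases, regulators and handling of secreted serpins. Of 7 other clade A serpins tested, 0 were called, and the most abundant, Serpina10 and Serpina7, had log2 fold changes of -0.29 (adjusted P = 0.183) and -0.28 (adjusted P = 0.387). Among serpins of other clades, Serpinc1, antithrombin, and Serping1, the C1 inhibitor, had log2 fold changes of -0.09 and -0.08 (adjusted P = 0.613 and 0.757). Of 8 serine proteases that such inhibitors bind, 0 were called, although 7 had log2 fold changes under 0 (median -0.23). Plasminogen (Plg) was at -0.15 and prothrombin (F2) at -0.01. Neutrophil elastase (Elane), the main target of Serpina1, had 2 to 9 counts per liver and was under the minimum.

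Of 20 acute phase companions, 1 was called higher and 0 were called lower in edgeR. The log2 fold changes were above 0 in 6 of them and under 0 in 14. Orm3, an alpha-1-acid glycoprotein gene, went from 26.1 ± 8.13 to 59.4 ± 10.8 CPM (log2 fold change 1.18 ± 0.19 SE, adjusted P = 0.00978), without overlap of the groups. The median log2 fold change of the list was -0.06, and Hp, haptoglobin, and Hpx, hemopexin, had -0.02 and -0.23. Of 19 transcriptional regulators and cytokine signalling genes 0 were called, with Cebpa at -0.30 (adjusted P = 0.133) and Ghr, the growth hormone receptor, at -0.09. In this list 7 log2 fold changes were above 0 and 12 under 0 (median -0.06). Of 10 genes of glucocorticoid handling, considered beside Serpina6, 0 were called, with Akr1c6 at -0.03 and Tat at -0.36. Here 2 were above 0 and 8 under 0 (median -0.12).

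Of 16 genes that fold, export or degrade secreted serpins, 0 were called, although 14 had log2 fold changes above 0 (median 0.12), and Hsp90b1 and Hspa5, the major chaperones, had -0.13 and 0.10. Of 5 receptors of serpin complexes 0 were called, with Asgr1 at -0.20 and Lrp1 at -0.08. The test of DESeq2 also called 5 listed genes, which are named for that reason and were chosen after their values were seen. Pdia4 was higher and Klkb1, Cebpa, Fgg and Asgr2 were lower, with adjusted P of 0.0346, 0.0249, 0.0151, 0.0481 and 0.0334.

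Markers of cell types were read beside these values. Of 6 hepatocyte markers 0 were called, but 6 had log2 fold changes under 0 (median -0.26), and their summed level was 80306 to 93849 CPM in the control group and 67053 to 84185 CPM in the MI-883 group. Alb and Cyp2e1 were at -0.16 and -0.07. None of the Kupffer cell and macrophage (Cd5l 0.04, Clec4f -0.18), stellate cell (Dcn 0.16, Ecm1 0.01), endothelial (Clec4g -0.13, Stab2 0.07) or bile duct markers (Spp1 0.83, Sox9 0.53) was called. Neutrophil markers such as Csf3r (0.46) and S100a9 (0.15) summed to at most 8.72 CPM. Above 0 were 5 of 6 Kupffer cell and macrophage markers (median 0.05) and 6 of 6 stellate cell markers (median 0.11). So were 4 of 5 endothelial (median 0.19), 5 of 5 bile duct (median 0.55) and 2 of 3 tested neutrophil markers (median 0.15). Pancreatic acinar markers were at or near 0, with Cela3b at 14 and Cpa1 at 1 counts over all livers. The part of cell makeup in the serpin values was not tested.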

How the data were processed

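Liver RNA of 5 control and 5 MI-883-treated mice was sequenced in paired reads of 150 bases from directional libraries. The authors aligned the reads to mm10 with STAR and deposited raw counts per gene, made with featureCounts and named by Entrez number, without normalization. The submitters' processing notes also name fastp 0.23.0. Annotation, strand setting and treatment of reads that fit several genes are not given in the sources used here. Of 16647 genes, 3 had no RefSeq symbol.

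Genes with at least 60 counts over the 10 livers (13219 of 16647) entered the comparison of the groups in edgeR 4.0.16, run in R 4.3.3 (TMM, quasi-likelihood test, Benjamini-Hochberg adjustment, threshold 0.05). Intervals of 95% used the degrees of freedom of the fit. DESeq2 1.42.0 without independent filtering was an alternative, with other scalings, other count minimums, a replicate block and leaving out each liver. Single values and shares were compared by exact two-sided permutation tests, which can give no P under 0.00794 for 5 livers against 5, and correlations by 100000 permutations within groups. Log2 CPM used a pseudocount of 0.5. The floor of 3 counts, 0.0838 to 0.133 CPM, covers counting error only. Transcripts were the longest GENCODE M21 transcript of each gene, used in place of RefSeq transcripts, and promoter windows (250 bases before to 50 after the start) came from RefSeq, which held 7 of the 10 genes.

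The members and lists were chosen with earlier results of these data known. Named genes are the members, those called in each list and the 2 most abundant others of it, Cyp2b10, and the 2 genes most like each member. Some results that this rule names are not reported here. Animals differed, and no 2 libraries were alike within counting error. The method was tested on simulated data, and the outcome is not reported here.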

Additional observations from a re-analysis of the deposited data

Results flagged for a closer look

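Of 42 groups of 5 livers checked for a single value far from the rest, 4 had one, where about 2.1 are found by chance. The Serpina1e level of control replicate 3 was 422 CPM, with the next control liver at 135 CPM. The Serpina1e share of Serpina1 counts was 2.96% in the same liver, beside 1.03% in the next control liver, and 3.67% in MI-883 replicate 5, beside 1.70% in the next MI-883 liver. These 3 values rest on counts of the same gene. The Serpina1a share in MI-883 replicate 1 was 15.4%, under the 16.1% of the next MI-883 liver, a step smaller than the spread among control livers. The cause was not tested for any of them.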

How the results depend on the processing

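No serpin gene was called under any of the 17 alternatives, and the lowest adjusted P of a member tested in the main comparison was 0.284. The count of called genes among all those tested was 136, and it was 463 with DESeq2, 89 with the replicate block and 62 to 208 with a liver left out. The replicate numbers did not pair the livers: the deviations of same-numbered livers correlated at 0.37, -0.11, -0.10, 0.08 and 0.09, and 1 of 10 livers was most like its own number. The block changed no call of a member. Of the members, 2 had an unadjusted P under 0.05 in edgeR without control replicate 3, and 1 without MI-883 replicate 2. With no count minimum 1 did, Serpina3c. With a liver left out, the log2 fold change lay between -0.060 and 0.086 for Serpina1a, -0.032 and 0.067 for Serpina1b, -0.17 and 0.064 for Serpina1c, -0.11 and 1.16 for Serpina1e, -0.18 and 0.093 for Serpina3m, and -0.23 and 0.064 for Serpina6, so that their signs depend on single livers, while Serpina1d, Serpina3k and Serpina3n kept theirs. The difference in share lay between -0.0446 and 1.82 percentage points for Serpina1b, -1.03 and 0.25 for Serpina1c, and -0.0414 and 0.896 for Serpina1e. With total counts, r became 0.21 for Serpina3c with Serpina3n, -0.087 for Serpina3k with Serpina3m and -0.081 for Serpina3k with Serpina3n, against -0.01, 0.23 and 0.18, and the pair of Serpina1a with Serpina1e passed (r = 0.74, adjusted permutation P = 0.0494). With stretches of 100 bases the shared part rose to 69.3% for Serpina1c and 49.9% for Serpina1a. Summing the paralogs before the fit gave -0.01 for Serpina1 and 0.12 for Serpina3, and total counts, chosen after seeing the data, gave 0.03 and 0.17. Depth limits Serpina3c alone among the members. The p-values measure the spread between 5 animals a group.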
